A study of Mus musculus with 8 samples.

Results

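The 38 genes described here belong to the ATF4 branch of the integrated stress response and to the unfolded protein response of the endoplasmic reticulum (ER). They were 17 genes of the amino acid response, 8 cytosolic tRNA synthetases and 13 ER chaperones and ER-associated degradation genes, out of 12393 genes with a probe set of their own on the array. The members were listed by gene symbol, with earlier results of these data known, and no threshold on a measured value chose them. Where a gene had several probe sets the brightest on average was read. The cells were CD11b+Gr-1+ immature myeloid cells (IMCs) sorted from the spleens of 4 male *Tff2-null* (Tff2-/-) mice, 16 weeks old and on a C57BL/6 background. The mice had received 3% DSS, a chemical that injures the colon, for 5 days and were killed 14 days later. Cells of each mouse were divided between a culture with GM-CSF (Csf2, 5 nM in the labels) alone and one with GM-CSF plus 3 µM mouse recombinant TFF2 (rTFF2), for 7 days, which gave 4 pairs of cultures (n = 4 mice). The study's methods give the GM-CSF dose by weight per volume, and it is a different dose from that of the labels. All 8 cultures lacked *Tff2*, came from DSS-treated animals and received GM-CSF, and no culture without GM-CSF and no wild-type cells were measured here. The sort preceded the culture, so each array measured whatever cells the culture held at its end. The comparison asks which of these genes differ when rTFF2 is added to GM-CSF.

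The integrated stress response begins with kinases that phosphorylate the translation factor eIF2 when amino acids are short, when misfolded protein gathers in the ER, or under other stresses. General translation then falls, while the mRNA of ATF4 is translated more, and ATF4 protein switches on genes for amino acid synthesis, amino acid transport and charging of tRNAs. ER stress also acts through IRE1, which splices the mRNA of *Xbp1*, and through ATF6, and both raise ER chaperones and the machinery that takes misfolded protein out of the ER for degradation. Myeloid cells depend on these pathways when they secrete much protein or meet scarce amino acids. The arrays measured mRNA, and neither eIF2 phosphorylation, ATF4 protein nor *Xbp1* splicing was measured here.

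Promoter sequences of the genes the results turn on were read first, because both pathways act through short DNA elements near the start of transcription. RefSeq promoter windows of GRCm38.p6, from 250 bases before to 50 after the start, were found for 33 of the 38 members. The table held no window for *Slc7a5*, *Slc1a5*, *Lars*, *Nars* or *Wars*. Both strands were searched for the ATF4 and C/EBP element (CARE, TGATGNAA), the ER stress element (ERSE, CCAAT and CCACG with 9 bases between them), ERSE-II (ATTGG and CCACG with 1 base between them) and the XBP1 element UPRE (TGACGTGG), and no match overlapped another. A CARE lay in 10 of 33 members and in 4.51% of the 27025 genes with a window. By group it lay in 5 of 15 amino acid response genes, in 4 of 5 tRNA synthetases (*Aars*, *Gars*, *Iars* and *Yars*) and in 1 of 13 ER genes, *Herpud1*. Of the members described below, it lay in 1 of 4 that were higher with rTFF2, in 5 of 10 that were lower and in 4 of 19 that were not called. An ERSE lay in 6 of 33 members, all of them ER genes, and in 0.137% of all genes. *Herpud1* held the single ERSE-II among the members, against 0.0444% of all genes. UPRE was found in 0 of 33 members and in 0.714% of all genes. These matches describe letters in a window and were not tested as binding sites. Shown first are 3 genes with a CARE, chosen because their signals rose, were not called and fell. *Slc7a11* (chr3:50443628-50443704, minus strand, upstream of the gene) held 2 of them, 66 and 47 bases before the start. *Asns* (chr6:7693200-7693257, minus strand) held 1, beginning 23 bases before the start, and *Iars* (chr13:49682112-49682149, plus strand) held 1 within the first exon, from base 8 of the transcript. Each sequence is written 5′ to 3′ on the strand of its gene, with the matches in capitals.
Slc7a11: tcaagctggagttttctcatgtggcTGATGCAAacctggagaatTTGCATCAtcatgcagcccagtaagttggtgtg
Asns: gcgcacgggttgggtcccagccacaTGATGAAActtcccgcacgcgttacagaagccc
Iars: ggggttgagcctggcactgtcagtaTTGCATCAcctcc

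Of the ER genes, *Herpud1* (chr8:94386292-94386412, plus strand) is shown for its CARE followed by its ERSE-II, 112 and 52 bases before the start. *Creld2* (chr15:88819495-88819563, plus strand), which fell, and *Hspa5* (chr2:34772000-34772068, plus strand), which was not called, each held an ERSE, 126 and 65 bases before the start. Capitals mark each match with the bases between its 2 parts, and all 3 windows lie upstream of the transcript.
Herpud1: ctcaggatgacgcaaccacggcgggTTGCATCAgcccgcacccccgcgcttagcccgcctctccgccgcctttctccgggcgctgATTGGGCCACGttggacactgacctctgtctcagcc
Creld2: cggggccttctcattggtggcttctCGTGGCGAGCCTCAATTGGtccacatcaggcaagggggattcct
Hspa5: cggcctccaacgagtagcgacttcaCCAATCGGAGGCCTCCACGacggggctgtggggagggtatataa

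Signals were GCRMA values on the log2 scale, and differences are given within mice as rTFF2 culture minus control culture, from limma with the mouse as a block and Benjamini-Hochberg adjustment over 22626 probe sets at 0.05. Array medians were 4.09 to 4.12 in the control cultures and 4.14 to 4.20 with rTFF2. The log2 difference between the 3′ and 5′ control probe sets of *Actb*, a reading of RNA length, was 0.42 to 0.62 in control cultures and 0.66 to 0.74 with rTFF2, so the groups did not overlap in it. A fit that holds it as a covariate, without the block, is given below. Since the covariate goes with the treatment, that fit cannot fully separate the 2, and the part of RNA length in the results was not tested. All 7 measured markers of myeloid identity lay above the background level of 3.30, the 95th percentile of 38 measured genes of other tissues. The summed signals (as log2) of other marker lists moved with the treatment. Neutrophil genes, namely granule genes and the receptor gene *Cxcr2* (8 of 8 measured higher), stood at 11.2 to 14.2 in control cultures and 14.7 to 15.1 with rTFF2. Basophil and mast cell genes (6 of 6 higher) stood at 7.44 to 8.88 and 12.0 to 12.9, and dendritic cell and MHC class II genes (9 of 10 lower) at 14.8 to 15.2 and 13.0 to 13.5. Markers of secretory plasma and B cells, which carry much ER, summed to 8.84 to 10.0 and 8.82 to 9.20, and of 9 measured, 2 were higher and 1 lower. *Prdm1*, the regulator of plasma cell fate, was higher by 1.98 (adjusted p = 8.7e-04). *Jchain*, which joins secreted antibody, was higher by 0.73 (adjusted p = 0.023, and 0.085 without the block), from below background in all 4 control cultures to above it in 2 of 4 rTFF2 cultures. *Irf4* was lower by 1.41 (adjusted p = 3.6e-04). Group means of *Prdm1*, *Irf4* and *Sdc1* were above background, and those of the other 6 measured genes, among them *Cd79a*, *Ms4a1*, *Tnfrsf17* and *Pou2af1*, were below it. In T and NK cell markers 0 of 6 were above background. In bulk RNA of this kind, fewer cells of a type and less RNA per cell cannot be told apart, and the part that these shifts had in the stress genes was not tested.

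All 38 members had a group mean above background. Of these, 4 were higher and 10 lower with rTFF2, and 24 were not called. Over the array 25.7% of probe sets were called in either direction. Among 7565 genes above background, 22.7% were higher and 18.5% were lower, against 10.5% and 26.3% of the members. The median difference was -0.09 over the members and 0.02 over those 7565 genes. All 4 members that rose were amino acid response genes, namely *Atf5*, *Ddit3*, *Slc7a11* and *Slc3a2*. In that group 23.5% were higher and 17.6% lower, close to the 22.7% and 18.5% of genes above background. The falls were spread over the groups, with 3 of 17 amino acid response genes, 3 of 8 tRNA synthetases and 4 of 13 ER genes. In 11 of the 14 called members the 2 groups of cultures did not overlap, and *Ddit3*, *Trib3* and *Yars* were the exceptions. Of the 3115 called genes above background, 77.2% did not overlap, against 78.6% of the called members. The widest rise was 2.00-fold (*Slc7a11*) and the widest fall 1.92-fold (*Psat1*). With limma's treat against a 1.5-fold change, 0 members passed after adjustment (unadjusted p under 0.05 in 2 higher and 2 lower), and 557 probe sets passed over the array. Centring each array on its median shifted every difference by -0.05 and took the share of higher calls over the array from 53.3% to 42.3%. Under it 3 members were higher and 11 lower, since *Ddit3* was no longer called and *Eprs* was. Without mouse 1 or without mouse 3 the number of lower members was 6.

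**Figure D1:**
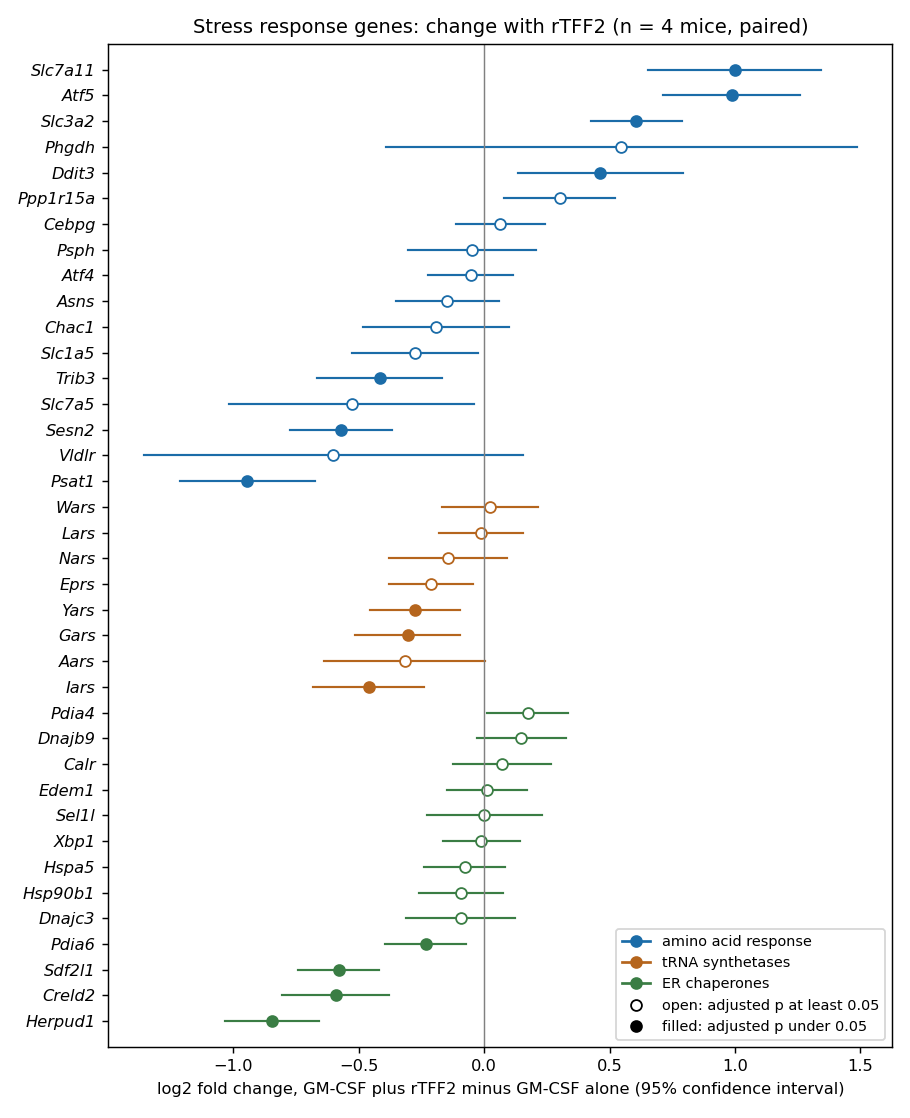
Difference in log2 signal between GM-CSF plus rTFF2 and GM-CSF alone for each of the 38 members (x axis, log2 fold change), with 95% confidence intervals from the paired limma fit over 4 mice. Filled points passed an adjusted p of 0.05. Rises above 0 that passed are all in the amino acid response group, while filled points below 0 occur in all 3 groups.

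*Atf4* itself, the transcription factor on which the eIF2 kinases converge, was not called at the level of mRNA. In mice 1 to 4 its signal was 11.10, 11.10, 10.99 and 10.90 with GM-CSF alone and 11.06, 10.92, 11.05 and 10.83 with rTFF2. The groups overlapped, and the difference was -0.05 (95% confidence interval -0.22 to 0.12, adjusted p = 0.63). Its chosen probe set carries the _x_at ending, which the maker uses for probes that may match other transcripts too, and a second probe set of the gene differed by 0.11 (adjusted p = 0.31). The chosen probe sets of *Trib3*, *Asns*, *Phgdh*, *Vldlr* and *Wars* carry the same ending. *Cebpg*, a C/EBP protein that pairs with ATF4, differed by 0.06 (adjusted p = 0.58), though another of its probe sets was higher by 0.23 (adjusted p = 0.041, and 0.25 without the block).

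*Atf5*, a close relative of ATF4 that is also controlled by translation, had the smallest adjusted p among the regulators and rose. Its signal was 5.82, 5.87, 5.95 and 5.72 in the control cultures of mice 1 to 4 and 6.79, 7.09, 6.52 and 6.90 in the rTFF2 cultures. Every rTFF2 culture lay above every control culture. The difference was 0.99 (SE 0.12), or 1.98-fold, higher in 4 of 4 mice (adjusted p = 0.0015).

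*Ddit3* encodes CHOP, a transcription factor that drives cell death genes under lasting stress. Control cultures of mice 1 to 4 gave 6.14, 6.10, 6.27 and 6.34, and their rTFF2 partners 6.98, 6.67, 6.78 and 6.27. Mouse 4 did not share the rise, so that the groups overlapped, and the gene was higher in 3 of 4 mice. The difference was 0.46 (SE 0.14, adjusted p = 0.049). The call was lost without mouse 1, 2 or 3 (adjusted p = 0.17, 0.13 and 0.14), and the value fell to 0.28 with the *Actb* covariate in place of the block (adjusted p = 0.52).

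*Trib3*, a pseudokinase induced by ATF4 and CHOP that restrains both, moved the other way. Signals of 4.69, 4.56, 4.85 and 4.89 in control cultures stood against 4.19, 4.41, 4.57 and 4.15 with rTFF2. It was lower in 4 of 4 mice although the groups overlapped slightly, with a difference of -0.42 (SE 0.11, adjusted p = 0.028). Its second probe set was also lower, with a difference of -0.37 (adjusted p = 0.036, and 0.19 without the block). Leaving out mouse 1, 3 or 4 ended the call of the chosen probe set (adjusted p = 0.10, 0.064 and 0.085), as did a linear offset of 32 (value -0.17, adjusted p = 0.079).

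*Sesn2*, a stress-induced sestrin that senses leucine and holds back the growth kinase mTORC1, was lower too. Its control cultures lay close together at 5.89, 5.84, 5.85 and 5.93, and the rTFF2 cultures at 5.17, 5.43, 5.12 and 5.50. No value overlapped. It fell by 0.57 on the log2 scale (SE 0.086, adjusted p = 0.0038), and its second probe set by 0.48 (adjusted p = 0.0059). With the *Actb* covariate the value was -0.59 (adjusted p = 0.065).

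The remaining regulators were not called. *Ppp1r15a* encodes GADD34, the phosphatase subunit that reverses eIF2 phosphorylation, and was higher in 4 of 4 mice by 0.30 on average (SE 0.094, adjusted p = 0.054). The difference was 0.48 in mice 1 and 2 and 0.17 and 0.07 in mice 3 and 4. Without mouse 4 it passed the threshold (adjusted p = 0.049). With all 4 mice it also passed after a filter on dim probe sets and in the fit to the mean of each gene's probe sets. *Chac1*, which degrades glutathione, differed by -0.19 (adjusted p = 0.30), from -0.64 in mouse 1 to 0.13 in mouse 4. Counted together, the 8 regulators gave 2 higher, 2 lower and 4 not called, or 25% in each direction, close to the 22.7% and 18.5% of genes above background.

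**Figure D2:**
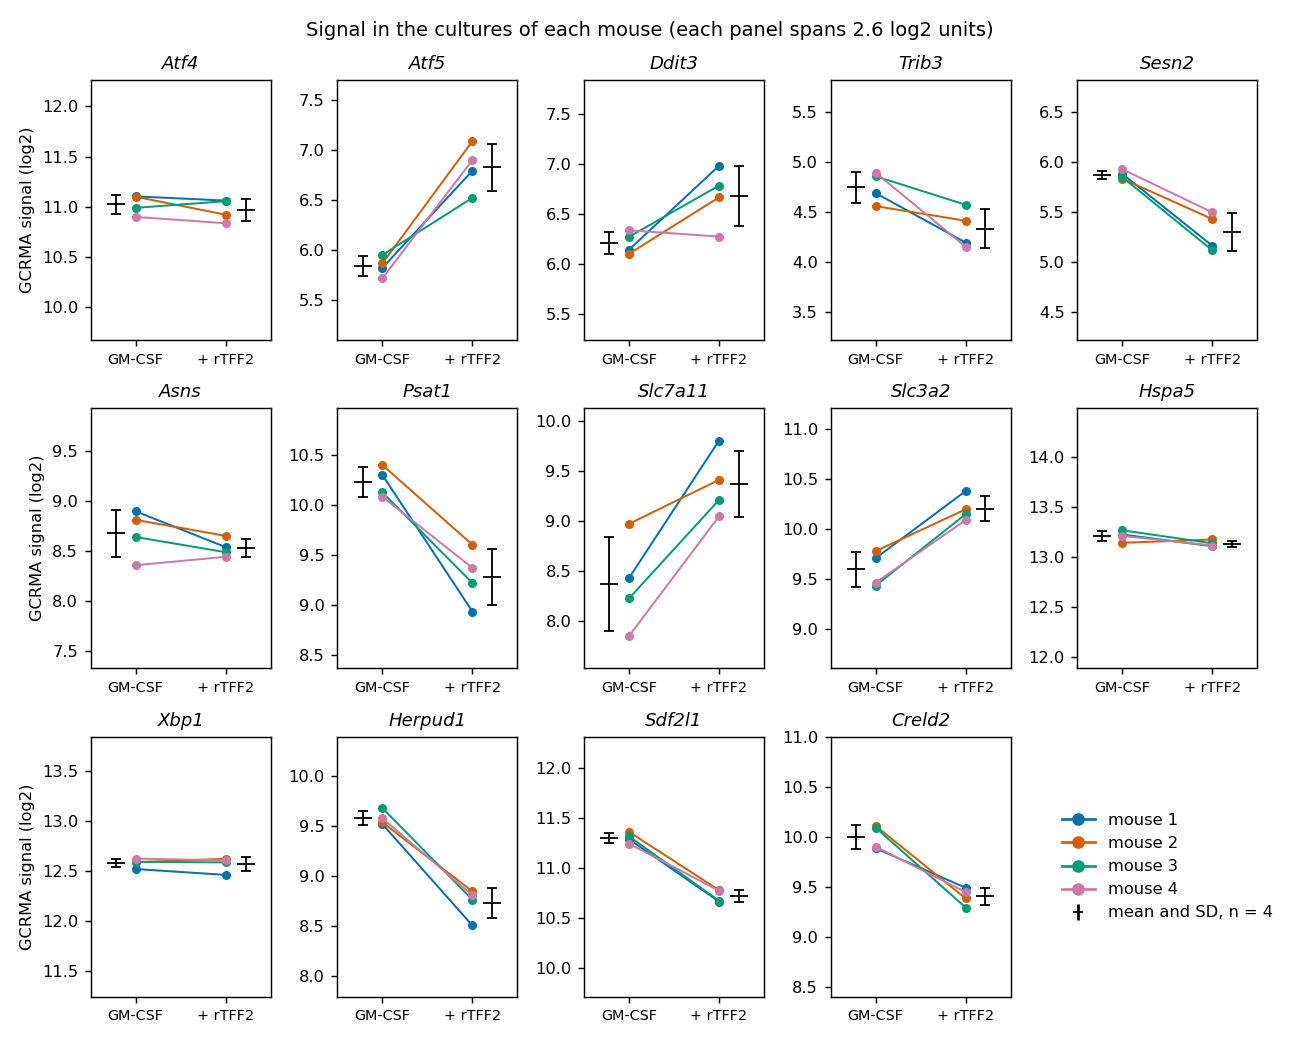
GCRMA signal (y axis, log2) of 14 members in the control and rTFF2 culture of each mouse, joined by a line per mouse, with the mean and SD of each group (n = 4) beside the points. All panels span the same range of log2 units. Lines for *Atf4*, *Hspa5* and *Xbp1* are nearly flat, those of *Atf5*, *Slc7a11* and *Slc3a2* all rise, and those of *Psat1*, *Sesn2*, *Herpud1*, *Sdf2l1* and *Creld2* all fall.

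Among the enzymes of amino acid synthesis, *Psat1* fell and the others were not called. *Asns*, which makes asparagine and is a classical ATF4 target, gave 8.90, 8.81, 8.64 and 8.36 in control cultures and 8.54, 8.65, 8.49 and 8.45 with rTFF2. The ranges overlapped, and the difference was -0.15 (95% confidence interval -0.35 to 0.06, adjusted p = 0.27), with 0.03 in a second probe set (adjusted p = 0.84).

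Serine synthesis runs through *Phgdh*, *Psat1* and *Psph* in that order, and only the middle enzyme was called. *Psat1*, the aminotransferase, had signals of 10.30, 10.40, 10.12 and 10.08 in control cultures and 8.93, 9.60, 9.22 and 9.37 with rTFF2. All rTFF2 cultures lay below all control cultures, by 1.37 in mouse 1 and by 0.71 to 0.90 in the others. It fell by 0.94 (SE 0.11), or 1.92-fold (adjusted p = 0.0016), and a second probe set fell by 0.99 (adjusted p = 0.0024). With the *Actb* covariate in place of the block the value was -0.87 (adjusted p = 0.060).

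*Phgdh*, the dehydrogenase at the entry of the pathway, varied widely between mice. Its control cultures read 7.53, 9.53, 7.00 and 6.60 and its rTFF2 cultures 7.44, 8.75, 8.16 and 8.50. Mouse 2 was the highest of both groups. The differences within mice were -0.08, -0.78, 1.15 and 1.90, and the mean of 0.55 had an SE of 0.40 (adjusted p = 0.36). With the *Actb* covariate the value was 2.03 (adjusted p = 0.16). *Psph*, the phosphatase of the last step, differed by -0.05 (adjusted p = 0.78).

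Both chains of the cystine importer rose. *Slc7a11* encodes xCT, the light chain that exchanges glutamate for cystine, from which glutathione is made. Control cultures of mice 1 to 4 had signals of 8.43, 8.97, 8.23 and 7.85, and the rTFF2 cultures 9.81, 9.41, 9.21 and 9.05. The groups did not overlap. The difference was 1.00 (SE 0.15, adjusted p = 0.0034), smallest in mouse 2 (0.44) and largest in mouse 1 (1.37). With the *Actb* covariate in place of the block its value was 1.66 (adjusted p = 0.015).

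*Slc3a2* encodes CD98, the heavy chain shared by xCT and by LAT1. It read 9.71, 9.78, 9.44 and 9.47 in control cultures and 10.38, 10.20, 10.15 and 10.09 with rTFF2. Again no control culture reached an rTFF2 culture. The rise was 0.61 (SE 0.077), or 1.52-fold, in 4 of 4 mice (adjusted p = 0.0019).

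The other transporters of the group and *Vldlr* were not called. *Slc7a5*, which encodes LAT1, the importer of leucine and other large amino acids, was lower in 4 of 4 mice by 0.53 on average (SE 0.21), without passing the threshold (adjusted p = 0.11). Its difference was -1.29 and -0.73 in mice 1 and 2 and -0.04 and -0.05 in mice 3 and 4. *Slc1a5*, a glutamine transporter, had the same division among the mice, with -0.53 and -0.47 in mice 1 and 2 and -0.02 and -0.08 in mice 3 and 4 (mean -0.28, adjusted p = 0.11). *Vldlr*, a lipoprotein receptor that ATF4 can induce, was dim. It differed by -0.60 (SE 0.32, adjusted p = 0.22), and was lower in 3 of 4 mice. In mouse 2 it read 2.42 and 3.09, both below background, and the rTFF2 culture of mouse 1 was below background as well (2.93). Without mouse 2 its value was -1.02 (adjusted p = 0.015), and with the *Actb* covariate -2.34 (adjusted p = 0.045). The other probe sets of *Vldlr*, with group means below background, were each lower in 4 of 4 mice. The brightest of those was called lower (-0.32, adjusted p = 0.030, and 0.44 without the block). Averaging all probe sets of the gene also gave a call.

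The cytosolic tRNA synthetases, which attach each amino acid to its tRNA, were lower by small amounts where they were called. Of the 8 members 3 were lower and 0 higher in the limma fit (0 also at an unadjusted p under 0.05, with or without the block), 37.5% lower against the 18.5% of genes above background. Their median difference was -0.24. Without mouse 1 or without mouse 3 the number lower was 1. *Iars*, for isoleucine, was lower in 4 of 4 mice by 0.46 (SE 0.093, adjusted p = 0.012), with the groups apart and a second probe set at -0.46 (adjusted p = 0.011). *Gars*, for glycine, differed by -0.31 (adjusted p = 0.043). *Yars*, for tyrosine, differed by -0.28 (adjusted p = 0.036) and was not called without the block (adjusted p = 0.090). The calls of *Gars* and *Yars* were each lost without mouse 1 or mouse 3 (adjusted p = 0.16 and 0.15 for *Gars*, 0.14 and 0.12 for *Yars*), that of *Gars* also without mouse 2 (0.091) or with the offset of 32 (0.077), and that of *Yars* also without mouse 4 (0.10). With the *Actb* covariate 0 of the 8 passed, *Iars* included (value -0.36, adjusted p = 0.19), and 2 were lower at an unadjusted p under 0.05.

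Other probe sets of the synthetases bear on this count. *Eprs*, for glutamate and proline, was lower in 4 of 4 mice by 0.21, with control and rTFF2 cultures apart, and missed the threshold (adjusted p = 0.068, and 0.037 without the block). Its other probe sets were lower by 0.51 (adjusted p = 0.0024) and 0.44 (adjusted p = 0.0055). *Aars*, for alanine, differed by -0.32 (adjusted p = 0.14), with a second probe set at -0.42 (adjusted p = 0.041). For *Nars*, which serves asparagine, the values were -0.14 (adjusted p = 0.34) and -0.27 (adjusted p = 0.031). *Lars*, for leucine, and *Wars*, for tryptophan, differed by -0.01 and 0.02 (adjusted p = 0.92 and 0.87).

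Of the 13 ER genes 4 fell (30.8%, against the 18.5% of genes above background) and 9 were not called, among them the main chaperone and the main transcription factor of the response. *Hspa5* encodes BiP, the main ER chaperone and a common marker of ER stress. Its signal was 13.22, 13.14, 13.26 and 13.21 in control cultures and 13.10, 13.17, 13.13 and 13.11 with rTFF2. The ranges overlapped and the difference was -0.08 (95% confidence interval -0.24 to 0.08, adjusted p = 0.46). A second bright probe set of *Hspa5* was lower in 4 of 4 mice without overlap, by 0.17, and was not called (adjusted p = 0.14). *Xbp1*, the transcription factor whose mRNA IRE1 splices, gave 12.52, 12.59, 12.59 and 12.62 against 12.46, 12.62, 12.58 and 12.60. The widest difference within a mouse was -0.06, and the mean difference was -0.01 (95% confidence interval -0.17 to 0.14, adjusted p = 0.91).

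*Herpud1*, a membrane protein of ER-associated degradation, had the smallest adjusted p of the 38. Control cultures gave 9.52, 9.54, 9.68 and 9.58 and rTFF2 cultures 8.51, 8.85, 8.76 and 8.81. Every rTFF2 culture lay well below every control culture. It fell by 0.85 (SE 0.080, adjusted p = 6.7e-04), and its second probe set by 0.77 (adjusted p = 0.0013). Its promoter is the one shown above with both a CARE and an ERSE-II.

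*Sdf2l1* encodes an ER protein that works with BiP and its co-chaperones. Signals were 11.29, 11.37, 11.32 and 11.25 with GM-CSF alone and 10.67, 10.78, 10.68 and 10.78 with rTFF2. The drop was much the same in every mouse, with a difference of -0.58 (SE 0.069, adjusted p = 0.0015). *Creld2*, an ER protein with disulfide isomerase activity that is induced by ER stress, gave 9.89, 10.11, 10.09 and 9.90 against 9.49, 9.38, 9.29 and 9.45. It too fell in 4 of 4 mice without overlap, by 0.59 (SE 0.091, adjusted p = 0.0040). With the *Actb* covariate its value was -0.52 (adjusted p = 0.053).

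*Pdia6*, a disulfide isomerase, was lower by 0.23 (SE 0.068, adjusted p = 0.043), a call that was lost without any 1 of the 4 mice (adjusted p from 0.056 to 0.14). Averaging it with its other probe set, which lay below background, gave -0.03 (adjusted p = 0.72). The ER genes left were *Hsp90b1* (GRP94), the BiP co-chaperones *Dnajb9* and *Dnajc3*, the isomerase *Pdia4*, the lectin chaperone *Calr* (calreticulin), and *Sel1l* and *Edem1* of ER-associated degradation. None of these 7 was called by limma in the probe set read, with differences from -0.09 (*Dnajc3* and *Hsp90b1*) to 0.17 (*Pdia4*, adjusted p = 0.11, and 0.036 with a linear offset of 32). A second bright probe set of *Hsp90b1* was lower in 4 of 4 mice without overlap, by 0.22, and was not called (adjusted p = 0.072). A dimmer probe set of *Dnajc3* was higher by 0.38 (adjusted p = 0.022). Of all 13 ER genes 0 were called higher, and 1 (*Pdia4*) was higher at an unadjusted p under 0.05, or 0 without the block. Their median difference was -0.08.

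**Figure D3:**
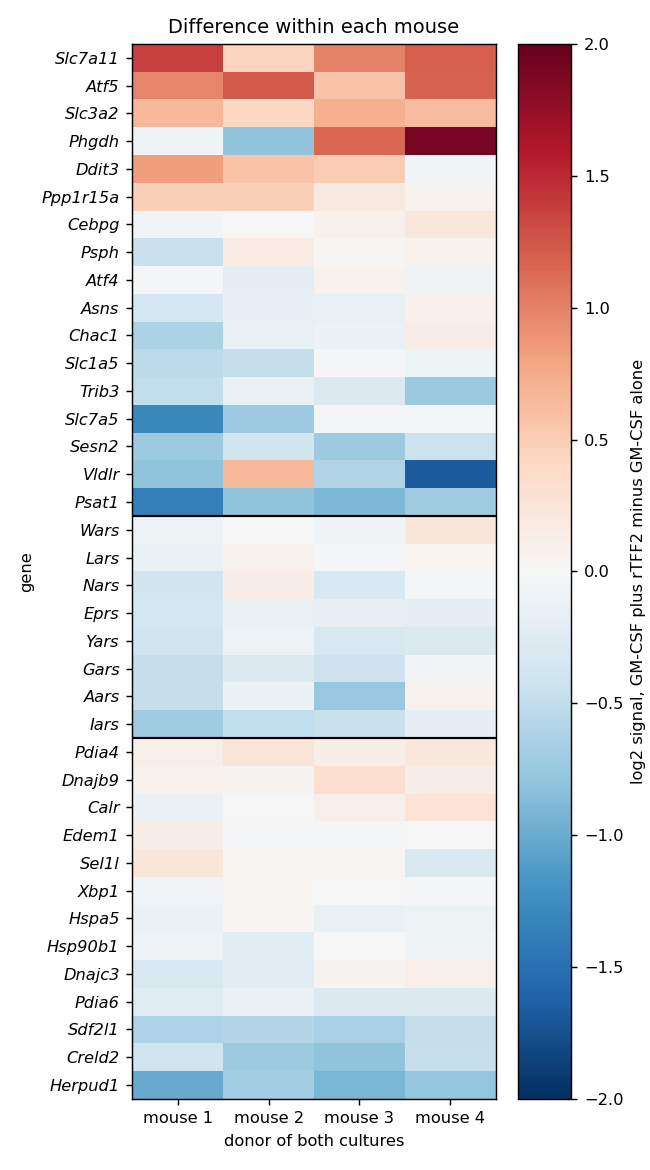
Difference in log2 signal between the rTFF2 and the control culture of each mouse (columns) for the 38 members (rows, in 3 groups parted by lines and ordered by mean difference). Red is higher and blue lower with rTFF2. *Slc7a11*, *Atf5* and *Slc3a2* are red and *Psat1*, *Sesn2* and *Herpud1* blue in all 4 mice, whereas *Phgdh* and *Vldlr* change colour between mice and *Slc7a5* is blue mainly in mice 1 and 2.

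Other genes of these pathways were read from lists of symbols, which were also chosen with earlier results of these data known. Of 15 measured stress sensors and eIF2 genes, 1 was higher and 4 were lower, with a median of -0.08. All 15 were above background. The shares were 6.67% and 26.7%, against 22.7% and 18.5% of genes above background. *Ppp1r15b*, which encodes the constitutive counterpart of GADD34 that also recruits a phosphatase to eIF2, was higher by 0.35 (SE 0.077, adjusted p = 0.016). *Eif2s3x*, a subunit of eIF2, was lower by 0.31 (adjusted p = 0.019), and *Eif2b2*, a subunit of its exchange factor, by 0.39 (adjusted p = 0.033, and 0.073 without the block). The others lower were *Eif2ak4*, the kinase GCN2 that senses uncharged tRNA, at -0.26 (adjusted p = 0.042), and *Eif2b1* at -0.31 (adjusted p = 0.037), both named after their values were seen. The ER sensor kinase *Eif2ak3* (PERK) differed by 0.23 (adjusted p = 0.058).

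Other targets of ATF4 and CHOP were called in both directions. Of 21 measured, 14 above background, 4 were higher and 4 lower, and the median was -0.00033. The share was 19.0% in each direction with the genes below background counted, though every called gene had a group mean above it. The 22.7% and 18.5% of genes above background leave dim genes out, so the shares are not of like sets. Over all 12393 genes, 1791 were higher and 1647 lower. *Gadd45a*, a growth arrest gene, was higher by 1.41 (SE 0.14, adjusted p = 8.2e-04). *Nupr1*, a stress-induced chromatin protein, was higher by 1.41 (SE 0.16, adjusted p = 0.0013). *Mthfd2*, a mitochondrial enzyme of one-carbon metabolism, was lower by 1.26 (SE 0.13, adjusted p = 8.5e-04). *Ddit4*, an inhibitor of mTORC1 named after its values were seen, had the widest difference of the list, 1.60 (SE 0.33, adjusted p = 0.013), higher in 4 of 4 mice. These 4 differences were wider than that of any of the 38 members.

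Synthetases outside the members were also lower where they were called. Of 13 other cytosolic synthetases and scaffold proteins, 9 were lower and 0 higher (0 at an unadjusted p under 0.05, and 6 lower and 0 higher without the block), with a median of -0.35. The lower share was 69.2%, against 18.5% of genes above background. *Qars*, for glutamine, was lower by 0.64 (adjusted p = 0.0010). The scaffold proteins *Aimp2* and *Aimp1* were lower by 0.66 (adjusted p = 0.0025) and 0.57 (adjusted p = 0.0050). Of 8 measured mitochondrial synthetases, 5 were lower and 0 higher (0 at an unadjusted p under 0.05 and 0 without the block), with a median of -0.30. Here the lower share was 62.5%, against the same 18.5%. The smallest adjusted p values of these mitochondrial genes were those of *Iars2* (-0.36, adjusted p = 0.0086), *Sars2* (-0.37, adjusted p = 0.012) and *Fars2* (-0.45, adjusted p = 0.019). *Sars2* and *Ears2*, another of the 5, lay below background in all 4 rTFF2 cultures, so that their differences depend on the background correction.

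Of 25 other ER folding and degradation genes, 24 above background, 2 were higher and 3 lower, with a median of -0.08. The shares were 8% and 12%, below the 22.7% and 18.5% of genes above background. *Sec61b*, a subunit of the channel through which proteins enter the ER, was lower by 0.50 (adjusted p = 0.0035). *Txndc5*, a disulfide isomerase, was lower by 0.77 (adjusted p = 0.0067), and *Wfs1*, an ER membrane protein, was lower by 0.59 (adjusted p = 0.0047), with 1 of 4 rTFF2 cultures above background. The higher ones, named after their values were seen, were the degradation genes *Edem3* by 0.48 (adjusted p = 0.043) and *Os9* by 0.24 (adjusted p = 0.037). Heat shock genes of the cytosol and mitochondria, a comparison outside the ER, gave 2 lower and 0 higher of 11 measured (0 higher at an unadjusted p under 0.05 and 0 without the block), with a median of -0.08. The lower share was 18.2% of all 11, of which 9 were above background, beside 18.5% of genes above background. The lower ones were *Hspe1*, a mitochondrial co-chaperonin, by 0.53 (adjusted p = 0.0035), and *Bag3*, a co-chaperone of HSP70, by 0.46 (adjusted p = 0.0094).

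**Figure D4:**
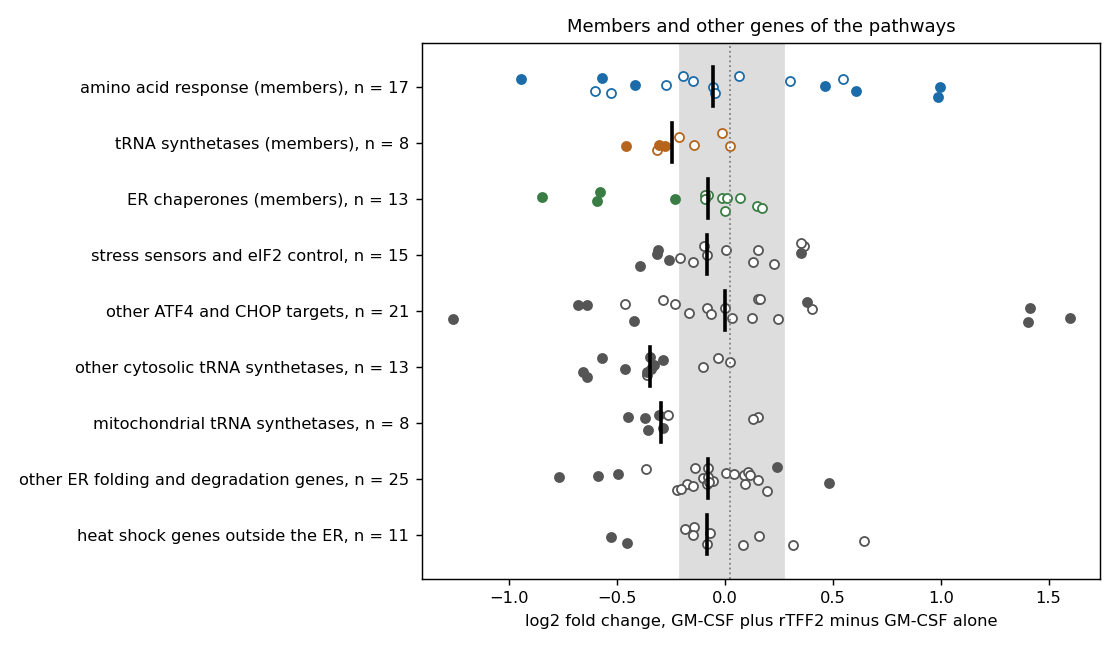
Difference in log2 signal between GM-CSF plus rTFF2 and GM-CSF alone (x axis) for single genes (points, filled where the adjusted p was under 0.05) in the 3 groups of members and in 6 lists of other genes. Black bars are medians, the dotted line is the median of 7565 genes above background (0.02) and the grey band their middle range, -0.21 to 0.27. Both lists of other synthetases have medians below the band, as have the member synthetases, while the amino acid response and other ATF4 targets extend on both sides of it.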

How the data were processed

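RNA of 8 cultures, a control and an rTFF2 culture from each of 4 mice, was hybridized to Affymetrix Mouse Genome arrays. The authors deposited log2 signals, computed with GCRMA (GCRMA 2.30.0 and affy 1.36.0 in the submitters' processing notes), which corrects background by probe base content, normalizes the arrays to 1 distribution and summarizes probes. Fold changes of dim genes depend on that correction. Scanner files were not used here.

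Differences were fitted in R 4.3.3 with limma 3.58.1 (lmFit, eBayes), with the mouse as a block, after 64 of 22690 probe sets were left out as controls. Benjamini-Hochberg adjustment covered 22626 probe sets at a threshold of 0.05. The labels give both cultures of a mouse 1 number and state that its cells were divided. Deviations from the group means correlated at 0.05, 0.54, 0.32 and 0.39 within mice 1 to 4 and at -0.55 to 0.35 between mice, over 12972 probe sets. A gene was read from its probe set with 1 gene symbol and the highest mean. The platform annotation gave exactly 1 symbol to 20380 probe sets. The background level was set by 38 measured of 42 listed genes of other tissues. Promoters came from RefSeq (GRCm38.p6), and the start was that of the RefSeq gene table for 25 of 33 members.

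The members and lists were chosen with earlier results of these data known. Values in every culture are given for called members with a difference of at least 0.5 and for *Atf4*, *Ddit3*, *Trib3*, *Asns*, *Xbp1* and *Hspa5*. *Phgdh* was added after its spread between mice was seen. From each pathway list the 3 genes with the smallest adjusted p are named, and other members by range and count. *Hspb1*, the third heat shock gene by that rule, lay below background (-0.19, adjusted p = 0.11). Alternatives were no block, leaving out each mouse, median centring, repeated quantile normalization, a linear offset of 32, a filter on dim probe sets, a trended and robust prior, array weights, the mean of a gene's probe sets, an *Actb* 3′ to 5′ covariate without the block, a threshold of 0.01 and treat at 1.5-fold. Precision is limited by the number of arrays.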

Additional observations from a re-analysis of the deposited data

Results flagged for a closer look

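In 7 of 76 sets of 4 cultures, 1 culture lay far from the others of its group by Dixon's criterion, where chance gives about 1 in 20, or 3.8. *Chac1* was low in the control culture of mouse 4 (4.43, others 4.70 to 4.74) and in the rTFF2 culture of mouse 1 (4.10, others 4.54 to 4.62). *Gars* was high in the rTFF2 culture of mouse 4 (9.32, others 9.02 to 9.06), and its difference in that mouse was -0.05. *Hsp90b1* (13.42, others 13.17 to 13.19) and *Dnajb9* (9.92, others 9.58 to 9.60) were both high in the control culture of mouse 2. *Sel1l* was high in the control culture of mouse 4 (6.97, others 6.61 to 6.65) and in the rTFF2 culture of mouse 1 (6.90, others 6.63 to 6.67). Of these genes *Gars* alone was called.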

How the results depend on the processing

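No member reversed direction with a call in any alternative. Called members gave 210 alternative fits, of which 158 kept the call in the same direction and 52 lost it. *Atf5*, *Slc7a11*, *Slc3a2*, *Herpud1* and *Sdf2l1* lost it only with treat, and *Sesn2*, *Psat1* and *Creld2* only with treat and the *Actb* covariate. Members not called gave 360 fits, of which 11 passed. Without the replicate block, 4 members were higher and 10 lower, and 4927 probe sets were called. *Yars* lost its call and *Eprs* gained one, and no other member's call changed. With an offset of 32, 1 ER gene was higher. With the *Actb* covariate and no block, 4 members, 0 synthetases and 2 ER genes were lower, and 2295 probe sets were called. At 0.01, 5 members and 0 synthetases were lower (4 synthetases at an unadjusted p under 0.05), and 2906 probe sets were called. With treat at 1.5-fold, 0 members were higher or lower in the amino acid, synthetase or ER group (limma; unadjusted p under 0.05 in 2 higher and 1 lower, 0 lower and 1 lower), and 557 probe sets were called. Leaving out each mouse gave 3 to 5 higher and 6 to 9 lower members, 3 to 5 higher and 2 to 4 lower amino acid response genes, 0 higher and 1 to 2 lower synthetases, 0 higher and 3 lower ER genes, and 3609 to 5006 probe sets. The causes were not tested. Of 40 further probe sets of the members, 8 differed in call from the chosen one and 0 were called the opposite way.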

Other observations

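*Phgdh* and the granule gene *Mpo* stood in the same order over the control cultures. *Mpo*, the myeloperoxidase of neutrophil granules, read 6.36, 8.95, 4.33 and 3.60 in the control cultures of mice 1 to 4, where *Phgdh* read 7.53, 9.53, 7.00 and 6.60. With rTFF2 *Mpo* read 9.47, 10.54, 9.93 and 9.77 and *Phgdh* 7.44, 8.75, 8.16 and 8.50, with mouse 2 the highest and mouse 1 the lowest in both. *Mpo* was picked from the 8 measured neutrophil genes, of which *Cxcr2* encodes a receptor and not a granule protein. Not all of the 8 shared these orders. In control cultures *Ctsg* and *Cxcr2* were lower in mouse 3 than in mouse 4, unlike *Phgdh*. With rTFF2, mouse 4 was highest for *Elane*, *Ltf*, *Camp* and *Ngp*, and mouse 3 for *Cxcr2*. *Prtn3* and *Ctsg*, like *Mpo*, had mouse 2 highest and mouse 1 lowest. The relation was seen after the values and was not tested.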
